A study of Mus musculus with 18 samples.

Results

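Class 3 semaphorins are the secreted members of the semaphorin family, and 10 genes of this system were followed in cultured mouse astrocytes: the ligands Sema3a, Sema3b, Sema3c, Sema3d, Sema3e and Sema3f, the neuropilins Nrp1 and Nrp2, and the A-type plexins Plxna1 and Plxna3. They are 10 of the 26301 genes in the deposited count table, matched through their Entrez IDs. Sema3c was selected on its higher measured level in co-culture at day 7 and Plxna3 on its higher level in co-culture at day 2, so these values are described without a test. The rest of the list are other genes of this family, chosen with earlier results of these data known. It is not the whole family, as Sema3g, Plxna2, Plxna4 and Plxnd1 are treated among the other genes. All 10 genes passed the filter on low counts.

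Semaphorins of class 3 act as guidance cues for axons, migrating cells and blood vessels. Most of them bind a neuropilin, which has a short cytoplasmic tail, and the signal is passed on by an A-type plexin in the same complex. Sema3e is the exception, as it can bind plexin D1 without a neuropilin. Neuropilins also bind vascular endothelial growth factors, and in the nervous system astrocytes are one of the sources of class 3 semaphorins.

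The astrocytes came from cortex dissected at P0 and had been about 2 weeks in culture. In 3 groups they stayed alone, for 2, 4 or 7 days, and in 3 further groups they received hippocampal neurons from P0 mice positive for TdTomato, a red fluorescent protein, for the same times. All 6 groups were grown with serum, moved to N2 medium at confluence, detached and sorted by TdTomato fluorescence, with astrocytes alone setting the negative gate. Each group had 3 libraries, and a replicate number stands for 1 date in the labels, so a pair means the library with neurons and the library alone of the same number and day. The labels name no strain, sex or genotype beyond TdTomato and do not state whether replicates are separate animals. A p-value here therefore speaks only of how much these cultures varied.

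Total counts ran from 3242459 reads to 32623556 reads. Replicate 1 of astrocytes alone at day 2 was the smallest library, with 92.5% of its reads on a single gene, and the first replicate with neurons at day 7 reached 8966485, with 40.5% from the mitochondrial ribosomal RNA mt-Rnr2. These are called the doubtful libraries, and results that rest on them are also given for the 16 others, which held at least 13950111 reads each. Levels are given as CPM, which are counts relative to the TMM-scaled library size. The floor of detection was set at 3 reads. It equalled 20.2 CPM for the library with the fewest reads, 0.504 CPM for the other doubtful one and no more than 0.179 CPM elsewhere, and it covers counting error only. Each of the 10 astrocyte markers, among them Gfap, Aqp4 and Slc1a3, had reads in every group. S100b was the rarest of them, with 411 reads in 8 of 9 libraries alone and 104 reads in 5 of 9 with neurons. The astrocyte markers differed by replicate number. Over the 16 libraries their sum was 914 to 1967 CPM in replicate 1, 1856 to 2436 in replicate 2 and 4009 to 5618 in replicate 3. Gfap held 67.6 to 176, 387 to 554 and 1245 to 1963 CPM in these. The part of this difference in the values of the 10 genes was not tested. The 9 neuronal markers differed from each other. Stmn2, which binds tubulin, was the most abundant, with 28676 reads over the 9 libraries alone and 31818 over the 9 with neurons, and Tubb3, a neuronal tubulin, had 1904 and 2857. Dcx, a marker of young neurons, had 6 and 496 reads, Nefl, a neurofilament, 0 and 197, and Snap25, a synaptic protein, 6 and 97. Syt1 had 200 and 470 reads, Gap43 650 and 989, Nefm 46 and 66 and Rbfox3 7 and 14. Snap25 had its reads with neurons in 2 of 9 libraries. Nefm was read in 6 of 9 libraries alone and 3 of 9 with neurons. The Gap43 median over the 16 libraries was 2.98 CPM alone and 2.33 CPM with neurons. In such bulk RNA, fewer cells of a type and less RNA per cell cannot be told apart.

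The promoters of Sema3c and Plxna3 are shown because these are the members picked for a difference between cultures. The sequences are the 250 bases before the annotated start, both on the plus strand, from RefSeq on GRCm38.p6, at chr5:17574566-17574815 for Sema3c and at chrX:74328816-74329065 for Plxna3. Capitals mark the GC box GGGCGG on either strand.
Sema3c: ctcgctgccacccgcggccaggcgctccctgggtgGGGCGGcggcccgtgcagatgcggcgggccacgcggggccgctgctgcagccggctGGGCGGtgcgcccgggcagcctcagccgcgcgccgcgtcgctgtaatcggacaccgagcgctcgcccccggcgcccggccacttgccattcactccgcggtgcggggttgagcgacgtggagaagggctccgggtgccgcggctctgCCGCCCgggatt
Plxna3: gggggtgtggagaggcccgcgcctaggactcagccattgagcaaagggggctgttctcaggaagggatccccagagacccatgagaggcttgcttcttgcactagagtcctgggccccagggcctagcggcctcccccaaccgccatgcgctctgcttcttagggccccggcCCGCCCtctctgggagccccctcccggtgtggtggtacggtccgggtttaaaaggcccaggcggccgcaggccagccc
The Sema3c window held 3 GC boxes and 39 CG pairs, and the Plxna3 window held 1 and 12, against a median of 6 CG pairs over 32851 windows of the same length. A window was listed for 7 of the 10 members, and 5 of them held a GC box (32.7% of all windows did). None of the 7 held TATAAA (12.4% of all windows), and only the Sema3d window held CCAAT (33.8%), with both strands searched and no overlap between these motifs. The match is a description of letters, and no data here bear on binding.

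Per kilobase of exon, Plxna1 was the most abundant of the 10 genes, with a median of 36.1 CPM per kb over the 16 libraries, followed by Sema3c with 22.4 CPM per kb. Plxna1 stood above Sema3c in 14 of 16 libraries, and Sema3c above the next gene, Sema3b, in 14 of 16. Sema3b (median 9.72 CPM per kb), Nrp1 (7.87) and Sema3f (7.83) were close together. Sema3b exceeded Nrp1 in 11 of 16 libraries and Nrp1 exceeded Sema3f in 8 of 16, so the order among these genes lay within their spread. Plxna3 followed with 4.04 CPM per kb and stood above Sema3e (1.33) in 16 of 16 libraries. Sema3e and Nrp2 (0.544) overlapped, with Sema3e higher in 10 of 16. Sema3d (0.0977) and Sema3a (0.0228) were at the lower end. Lengths are exon unions of GENCODE vM21, which may differ from the features on which the reads were counted.

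**Figure D1:**
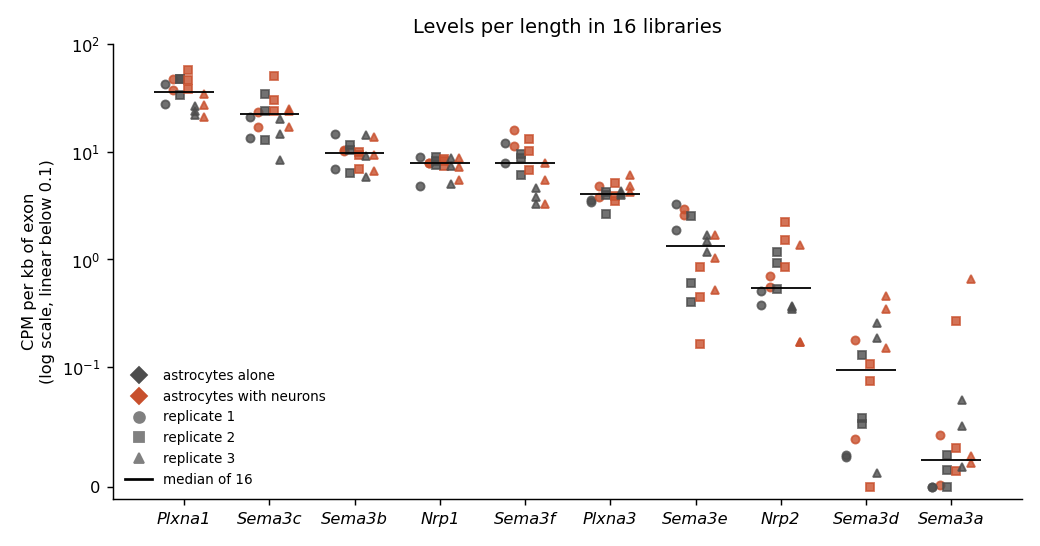
Level of each of the 10 genes in CPM per kb of exon (vertical axis, log scale that is linear below 0.1), 1 point per library for the 16 libraries without the doubtful ones, with the median as a line. Plxna1 and Sema3c lead, and Sema3d and Sema3a lie lowest.

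Sema3c, a ligand known for its part in the outflow tract of the heart and in axon guidance, was the ligand picked for day 7. In astrocytes alone at day 7 the libraries of replicates 1, 2 and 3 held 96.7, 90.8 and 60.3 CPM. With neurons they held 47.4, 358 and 171 CPM, the first of these in a doubtful library. Without that library the co-culture values all lay above those of astrocytes alone, and with it the groups overlapped, the doubtful library being the lowest of the 6. The fitted log2 fold change was 1.22 (SE 0.49) with 18 libraries, 1.65 with 16 libraries and 1.53 (SE 0.25) with 16 libraries and the replicate number as a block. Without replicate 2 of the co-culture the value was 0.34, and without the doubtful library of that group it was 1.67. The fit that gave 0.34 kept the doubtful library beside replicate 3, so it cannot show how much replicate 2 carried. Sema3c was higher with neurons in replicate 2 (90.8 and 358 CPM) and in replicate 3 (60.3 and 171 CPM). It was lower in replicate 1 (96.7 and 47.4 CPM), where the library with neurons is doubtful. As this contrast chose the gene, no test is given, and the SE, which comes from the same values, is not one. Every library with neurons was higher in 9.37% of all tested genes when the doubtful libraries were left out.

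At the earlier days Sema3c did not separate the cultures. At day 2 it stood at 87.4 (doubtful library), 169 and 105 CPM alone and at 122, 169 and 120 CPM with neurons. At day 4 it stood at 151, 244 and 144 CPM alone and at 168, 217 and 177 CPM with neurons. The groups overlapped at both days, replicate 2 was the highest library in each of these 4 groups, and edgeR gave log2 fold changes of 0.15 (SE 0.49, adjusted p = 1.0) and 0.059 (SE 0.48, adjusted p = 1.0).

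From day 4 to day 7, Sema3c alone went from 244 to 90.8 CPM in replicate 2, from 144 to 60.3 CPM in replicate 3 and from 151 to 96.7 CPM in replicate 1, so all 3 day 7 libraries alone lay below all 3 at day 4 (3.62% of all tested genes showed this). With neurons replicate 2 went from 217 to 358 CPM, replicate 3 from 177 to 171 CPM and replicate 1 from 168 to 47.4 CPM, the last in a doubtful library. The fitted log2 difference between day 7 and day 4 was −1.12 (SE 0.48) alone and 0.039 (SE 0.48) with neurons. With 16 libraries the value with neurons was 0.52, and 0.40 (SE 0.25) with the block added. Both use day 7 and are given without a test. Between day 2 and day 4, which the choice of the gene did not use, Sema3c was higher at day 4 in 3 of 3 replicate numbers alone (21.6% of all tested genes) and in 3 of 3 with neurons (14.3%), with log2 fold changes of 0.54 (SE 0.49) and 0.45 (SE 0.48) and an adjusted p of 1.0 for each in edgeR.

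**Figure D2:**
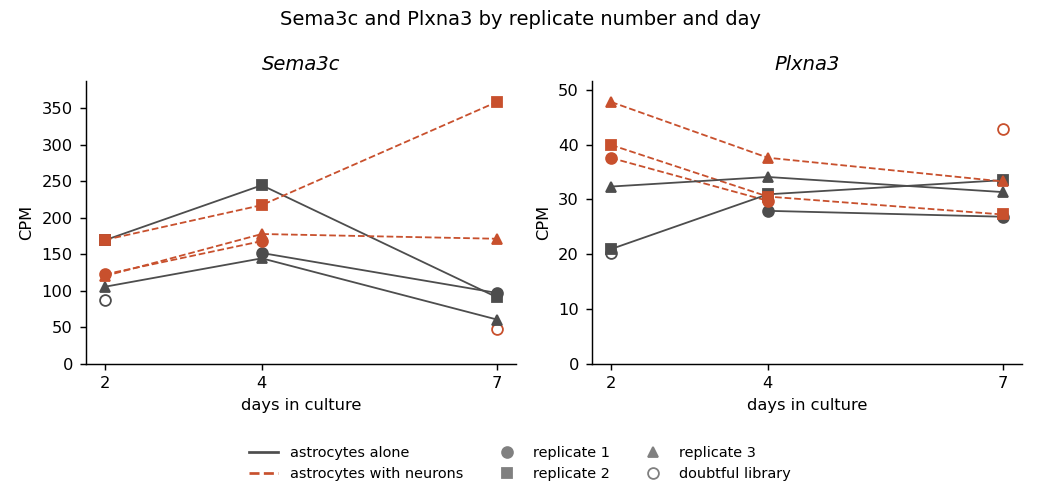
CPM of Sema3c and Plxna3 (vertical axes) against days in culture, 1 point per library, with lines joining libraries of the same replicate number and culture and open points for the doubtful libraries, which no line joins. At day 7 the filled Sema3c points with neurons (171 and 358 CPM) lie above those alone (60.3 to 96.7 CPM), and at day 2 the Plxna3 points with neurons lie above those alone.

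Markers of other cells stood beside these values as follows at day 7. Summed over 9 microglial markers, replicate 2 had 199 CPM alone and 378 CPM with neurons, replicate 3 had 7.42 and 5.53 CPM, and replicate 1 had 2.79 and 84.9 CPM. The summed 8 markers of meningeal fibroblasts, cells known to make class 3 semaphorins, stood at 260 and 337 CPM in replicate 2, at 134 and 132 CPM in replicate 3 and at 120 and 61.0 CPM in replicate 1. Both sums were highest in replicate 2 with neurons, which was also the highest library for Sema3c. In replicate 3, where Sema3c stood at 60.3 and 171 CPM, neither sum was higher with neurons. There Ogn, the most abundant fibroblast marker, stood at 42.2 and 76.5 CPM, and the rest summed to 91.7 and 55.9 CPM. Without Lyz2, the most abundant microglial marker, the microglial sums were 34.0 and 190 CPM in replicate 2. They were 1.37 and 0.98 CPM in replicate 3 and 0.93 and 74.0 CPM in replicate 1. The 9 neuronal markers summed to 155 and 137 CPM in replicate 2, to 97.7 and 93.7 CPM in replicate 3 and to 84.1 and 61.5 CPM in replicate 1. Stmn2 made up most of these sums except in the doubtful library. Without Stmn2 the sums were higher with neurons in each replicate, at 15.6 and 34.8 CPM in replicate 2, 6.88 and 7.29 CPM in replicate 3 and 9.30 and 53.6 CPM in replicate 1. With neurons 6 of the 9 had no read in replicates 1 and 3. Over the groups at day 7 these sums ranged, alone and with neurons, from 2.79 to 199 and from 5.53 to 378 CPM for microglia, from 120 to 260 and from 61.0 to 337 CPM for fibroblasts, from 122 to 399 and from 41.9 to 200.5 CPM for 9 endothelial and mural markers and from 109 to 403 and from 53.4 to 168 CPM for 8 oligodendrocyte lineage markers. Cldn5, a tight junction gene of endothelium, and Kcnj8, a channel of pericytes, had no read at day 7. Acta2, the most abundant of these 9, stood at 63.6, 342 and 115 CPM in replicates 1, 2 and 3 alone. With neurons it stood at 22.7, 75.7 and 142 CPM. Over the 16 libraries of all days, Pdgfrb had medians of 58.9 CPM alone and 88.0 CPM with neurons. Pecam1, Cdh5, Tek, Rgs5 and Abcc9 had medians of 1.05 CPM or below. The part of these cells in the Sema3c values was not tested.

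The genes whose pattern over the 16 libraries was most like that of Sema3c were Cp, Ssbp2 and Ccp110, out of 11913 genes compared. Their root mean square difference from Sema3c in log2 CPM, each gene centred on its own mean, was 0.32, 0.33 and 0.35, where Sema3c itself varied by 0.59 around its mean. Cp encodes ceruloplasmin, a ferroxidase that carries copper.

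Sema3f, a ligand that binds mainly Nrp2 and repels axons, was well detected. Sema3f stood at 40.3 (doubtful library), 45.3 and 23.9 CPM alone and at 82.8, 68.2 and 28.3 CPM with neurons at day 2, where the pairs were all higher with neurons and the groups overlapped (log2 fold change 0.74, SE 0.61, adjusted p = 1.0, and 0.48 with 16 libraries and the block). At day 4 it stood at 63.2, 49.98 and 16.9 CPM alone and at 58.8, 52.3 and 40.9 CPM with neurons. At day 7 it stood at 40.4, 31.5 and 19.8 CPM alone and at 4.54 (doubtful library), 35.4 and 17.1 CPM with neurons. Replicate 1 was above replicate 2 and replicate 2 above replicate 3 in every group where both libraries were among the 16, which was 4 of 4 and 6 of 6 groups.

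With neurons, Sema3f was lower at day 7 than at day 2 in 3 of 3 replicate numbers, as were 14.3% of all tested genes, while the groups of these days overlapped. Replicate 3 was highest at day 4. All 3 libraries with neurons at day 7 lay below all 3 at day 4, also without the doubtful library (4.4% and 7.12% of all tested genes showed this). The fitted log2 difference was −1.40 (SE 0.59, adjusted p = 0.458) from day 4 to day 7 and −1.64 (SE 0.60, adjusted p = 0.291) from day 2 to day 7, in edgeR. Neither passed. The unadjusted edgeR p was under 0.05 in both, as for 10.2% and 13.2% of all tested genes. Alone, the difference from day 2 to day 7 was −0.23 (SE 0.61, adjusted p = 1.0), and the difference between the cultures in this change was −1.41 (SE 0.85, adjusted p = 0.919) and −0.55 (SE 0.43) when the doubtful libraries were left out and the block was used. The same fit gave, with neurons, a difference from day 2 to day 7 of −0.91 (SE 0.31) and from day 4 to day 7 of −0.80 (SE 0.30).

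Sema3b, a ligand also known as a candidate tumour suppressor, showed no separation between the cultures at any day. Its libraries lay between 28.1 and 70.0 CPM in the 16 libraries and at 13.5 and 5.72 CPM in the doubtful ones. The fitted log2 fold changes were 0.21 (SE 0.58), 0.16 (SE 0.56) and −0.70 (SE 0.57) at days 2, 4 and 7, with adjusted p of 1.0, 1.0 and 0.761. At day 7 the value was −0.22 without the doubtful library and −1.55 without replicate 3 with neurons. The mean with neurons was 49.1 ± 22.6 CPM (SD, n = 2) without it and 56.4 ± 22.3 CPM (SD, n = 3) alone. A single gene in the table, Lsmem2 with 245 reads in all libraries, overlaps Sema3b in RefSeq, against 20623 reads of Sema3b.

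Sema3e, the ligand of plexin D1, differed between replicate numbers. Over the 16 libraries replicate 1 held 17.6 to 30.3 CPM, replicate 3 held 4.83 to 15.8 CPM and replicate 2 held 1.52 to 23.8 CPM. Replicate 1 exceeded replicate 3 in 4 of 4 groups and replicate 2 in 3 of 4. With neurons it was lower in 3 of 3 pairs at day 2 (8.48% of all tested genes), where the highest of the values alone, 33.6 CPM, rests on 5 reads in the doubtful library. The fitted log2 fold change was 0.0069 (SE 1.02, adjusted p = 1.0) at day 2, −0.49 (SE 0.93, adjusted p = 1.0) at day 4 and −1.23 (SE 0.95, adjusted p = 0.738) at day 7, where leaving out a library or a replicate number moved it from −2.72 (without replicate 3) to −0.71 (without replicate 2). At day 7 the libraries of replicates 1, 2 and 3 held 17.6, 23.8 and 10.9 CPM alone and 2.02, 4.19 and 15.8 CPM with neurons, so replicates 1 and 2 were lower with neurons and replicate 3 was higher.

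Sema3a, the ligand that gave the family its early name of collapsin, and Sema3d, a close relative, were near the limit of detection. Sema3a had 356 reads in 13 of 18 libraries. Its highest values were 9.06 CPM in replicate 3 of the day 4 co-culture and 3.72 CPM in replicate 2 of the day 2 co-culture, and its other libraries lay at 1.01 CPM or below. Sema3d had 456 reads in 15 of 18 libraries and reached 3.94 CPM in the same day 4 library that was highest for Sema3a. In that library 85.4% of the tested genes had a read, the lowest share of the 16 libraries. The doubtful library with neurons at day 7 had 83.15%. Sema3d was higher with neurons in 3 of 3 pairs at day 4 (10.7% of all tested genes), with a log2 fold change of 1.12 (SE 1.53, adjusted p = 1.0) in edgeR. For Sema3a the log2 fold change at day 4 was 3.03 (SE 1.97, adjusted p = 1.0), with 0.00, 0.199 and 1.01 CPM alone and 0.599, 0.179 and 9.06 CPM with neurons. Without replicate 3 with neurons at day 4 the fitted change was −0.022.

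**Figure D3:**
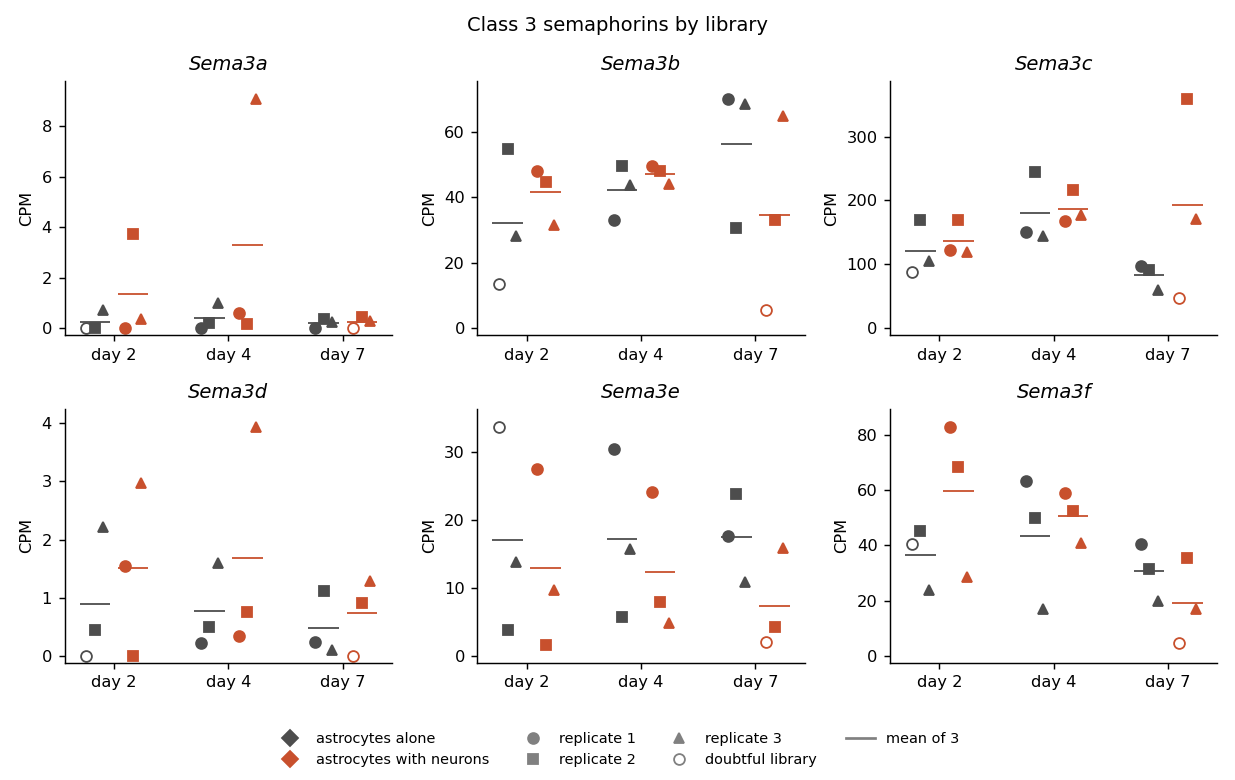
CPM of the 6 ligands (vertical axes, each with its own scale) in astrocytes alone and with neurons at days 2, 4 and 7, 1 point per library with a symbol per replicate number, open points for the doubtful libraries and a line at the mean of 3. The day 7 groups separate for Sema3c once the open point is set aside, and those of the other 5 ligands overlap at each day.

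Among the receptors, Nrp1, which binds Sema3a and several other ligands as well as VEGF-A, lay between 47.1 and 88.0 CPM in all 18 libraries. It stood at 47.1 (doubtful library), 88.0 and 85.6 CPM alone and at 77.5, 72.4 and 84.9 CPM with neurons at day 2. At day 4 it stood at 87.0, 79.7 and 71.7 CPM alone and at 76.4, 80.0 and 53.0 CPM with neurons. At day 7 it stood at 47.2, 73.7 and 49.2 CPM alone and at 57.3 (doubtful library), 83.8 and 70.6 CPM with neurons. The day 7 pairs were all higher with neurons (14.0% of all tested genes), with overlapping groups and a log2 fold change of 0.32 (SE 0.30, adjusted p = 0.808). At day 2 the co-culture values lay below both other libraries alone once the doubtful one was left out (7.46% of all tested genes), and with it the groups overlapped (2.27% of all tested genes were lower in every library). The fitted change there was 0.023 (SE 0.30, adjusted p = 1.0) with 18 libraries and −0.15 with 16.

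Nrp2, the partner of Sema3c and Sema3f among others, was much less abundant and followed the replicate number. Replicate 2 exceeded replicate 1 in 4 of 4 groups and replicate 3 in 5 of 6. Over the 16 libraries it held 6.31 to 26.5 CPM in replicate 2, 4.47 to 8.39 CPM in replicate 1 and 2.02 to 16.04 CPM in replicate 3. The highest value of replicate 3 was the day 4 co-culture library that was also highest for Sema3a and Sema3d. Of the 16 libraries, that library had the lowest share of tested genes with a read, 85.4%. The log2 fold changes were 0.42 (SE 0.99), 0.70 (SE 0.93) and 0.50 (SE 0.93) at days 2, 4 and 7, with adjusted p of 1.0, 1.0 and 0.931 in edgeR. At day 7 the value was 0.98 with 16 libraries and 0.26 with the block added.

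Plxna1, the most abundant signalling receptor of the group, was higher with neurons in 3 of 3 pairs at day 2. It stood there at 182 (doubtful library), 428 and 198 CPM alone and at 430, 523 and 311 CPM with neurons. The groups overlapped, since replicate 2 alone exceeded replicate 3 with neurons. The log2 fold change was 0.62 (SE 0.39, adjusted p = 1.0), and 0.46 with 16 libraries and the block. At day 4 the values were 388, 431 and 214 CPM alone and 342, 421 and 244 CPM with neurons, and at day 7 they were 249, 305 and 241 CPM alone and 202 (doubtful library), 347 and 189 CPM with neurons. The log2 fold changes there were −0.038 (SE 0.39, adjusted p = 1.0) and −0.11 (SE 0.39, adjusted p = 0.974). Replicate 2 exceeded replicate 1 in 4 of 4 groups and replicate 3 in 6 of 6. With neurons Plxna1 was lower at day 7 than at day 2 in 3 of 3 replicate numbers, as were 14.3% of all tested genes (log2 −0.77, SE 0.39, adjusted p = 0.396).

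Plxna3, a plexin that works with Nrp2, was picked for day 2. Its libraries there held 20.2 (doubtful library, 3 reads), 20.9 and 32.4 CPM alone and 37.6, 40.0 and 47.8 CPM with neurons. All 3 libraries with neurons lay above all 3 alone, as in 3.26% of all tested genes, and above both others when the doubtful library was left out (4.69%). The mean was 24.5 ± 6.83 CPM (SD, n = 3) alone and 41.8 ± 5.35 CPM (SD, n = 3) with neurons, a log2 fold change of 0.71 (SE 0.32) with 18 libraries and 0.74 with 16 libraries and the block. The gene was chosen on these values, so no test is given and the SE is not one. Leaving out the third replicate of the group alone gave 1.02, and leaving out its replicate 2 gave 0.51.

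At the other days Plxna3 overlapped between the cultures. At day 4 it stood at 27.9, 30.9 and 34.1 CPM alone and at 29.8, 30.5 and 37.6 CPM with neurons (log2 fold change 0.075, SE 0.30, adjusted p = 1.0). At day 7 it stood at 26.8, 33.5 and 31.4 CPM alone and at 42.9 (doubtful library), 27.3 and 33.3 CPM with neurons (0.17, SE 0.31, adjusted p = 0.985). The day 7 minus day 4 difference of the co-culture effect was 0.096 (SE 0.43, adjusted p = 1.0). At day 2 the sums of the neuronal markers in replicates 2 and 3 were 129 and 132 CPM alone and 187 and 117 CPM with neurons. Without Stmn2 they were 18.3 and 11.2 CPM alone and 36.5 and 12.1 CPM with neurons. Those of the microglial markers were 84.2 and 2.66 CPM alone and 256 and 7.85 CPM with neurons, and the part of these cells in the Plxna3 values was not tested. The genes most like Plxna3 over the 16 libraries were Patj, a scaffold protein of tight junctions, Myo16 and Tbc1d9b, with root mean square differences of 0.16, 0.19 and 0.20 in log2 CPM, where Plxna3 varied by 0.26 around its mean.

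**Figure D4:**
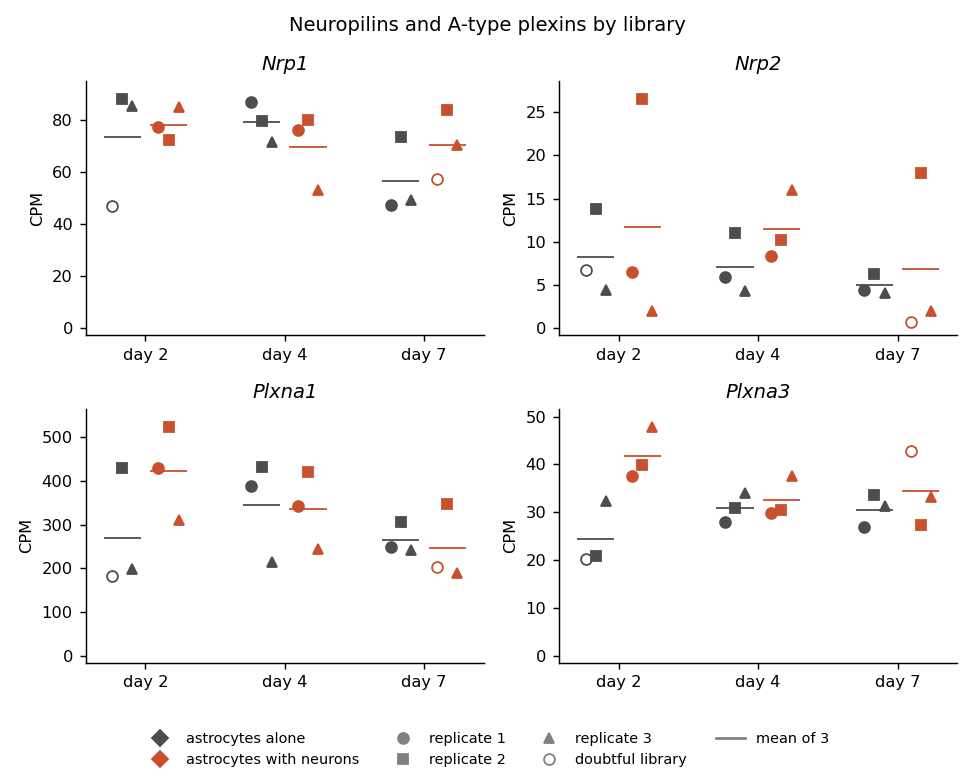
CPM of the 2 neuropilins and the 2 plexins (vertical axes, each with its own scale) in astrocytes alone and with neurons at days 2, 4 and 7, 1 point per library with a symbol per replicate number, open points for the doubtful libraries and a line at the mean of 3. With 3 libraries in each group, the groups separate for Plxna3 at day 2 and overlap for the other genes and days.

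Over all 10 members, none of those tested passed edgeR's quasi-likelihood test with Benjamini-Hochberg adjustment in any co-culture comparison, with 0 of 9 at day 2, 0 of 10 at day 4, 0 of 9 at day 7 and 0 of 8 on average over the days. The share called among the 16539 genes tested was 0.0% in each of these comparisons, and an unadjusted p under 0.05 was found for 2.35%, 0.369%, 9.37% and 4.17% of all genes and for 0 of the tested members. DESeq2 also called 0 of these members, with 0.133%, 0.0%, 0.0302% and 0.0% of all genes called. With 16 libraries and the block 0 members were called, and 0.0936% of all genes were called at day 2 and 0.105% at day 7. Of the 9 members not picked for day 2, 3 were higher in 3 of 3 pairs there, which are Sema3c, Sema3f and Plxna1 (15.2% of all tested genes). Their replicate 1 pair rests on the doubtful library, and Sema3c in replicate 2 was nearly equal, at 169.0 CPM alone and 169.4 CPM with neurons. Sema3e was lower in 3 of 3 pairs (8.48% of all tested genes). Groups that did not overlap were found at day 4 for 0 of 10 members (2.05% of all tested genes higher and 3.92% lower) and at day 7 for 0 of 10 with 18 libraries (4.29% higher and 5.58% lower). At day 7 with 16 libraries 0 members were lower in every library (8.57%), and 0 were lower in 3 of 3 pairs at day 4 (14.8%) or day 7 (15.8%). The fitted change was above 0 for 10 of 10 members at day 2, 7 at day 4 and 6 at day 7, against 53.3%, 48.6% and 50.2% of all genes. With 16 libraries and the block it was above 0 for 7, 7 and 5 of the 10, against 46.1%, 45.9% and 47.8%, and Sema3b, Sema3e and Nrp1 were the members below 0 at day 2. The median over the members was 0.37, 0.12 and 0.24, against 0.040, −0.014 and 0.0041 over all genes. At day 7 it was 0.097 with 16 libraries and the block, against −0.024 over all genes. Sema3c and Plxna3 are part of these counts through the values that chose them.

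**Figure D5:**
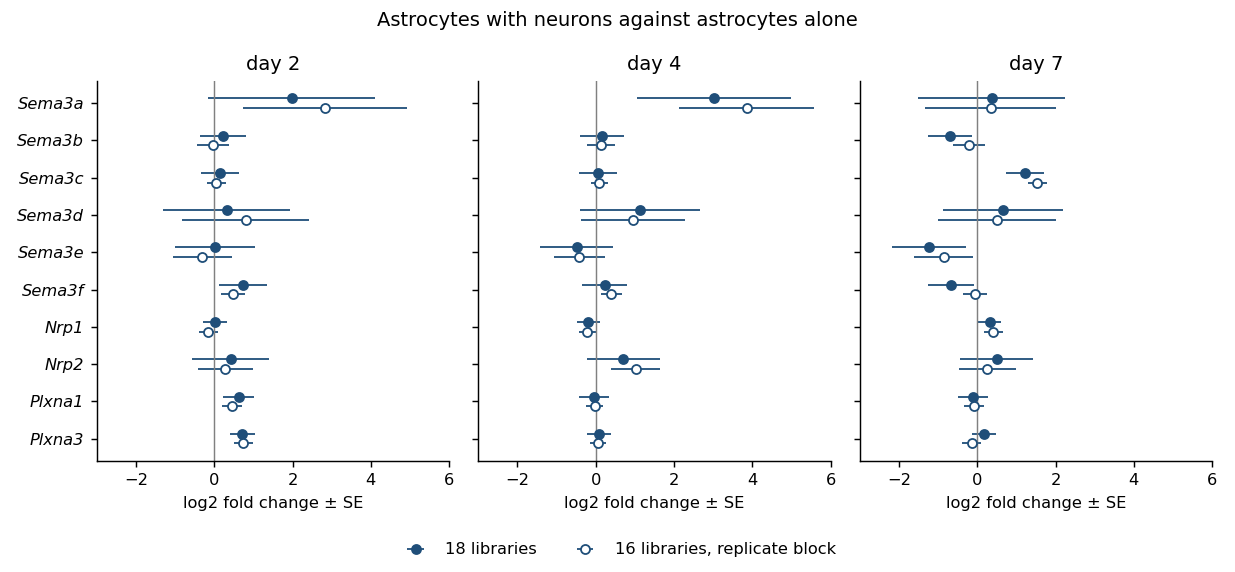
Log2 fold change with its standard error for astrocytes with neurons against astrocytes alone (horizontal axes) at days 2, 4 and 7, for the 10 genes, from 18 libraries without a block (filled) and from 16 libraries with the replicate number as a block (open). Sema3c at day 7 and Plxna3 at day 2 were chosen for these values, and the widest errors belong to the rarest genes, Sema3a and Sema3d.

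Whether the effect of neurons differed by day was tested for the members that the choice had not used, and 0 passed. They numbered 8 for day 7 against day 2 and 9 each for day 7 against day 4 and for day 4 against day 2. Among all genes edgeR called 0.0% in each, with an unadjusted p under 0.05 for 5.47%, 3.07% and 1.06%. For changes with time, 0 of 8 or 9 members passed in each of the 6 comparisons between days within a kind of culture, again with 0.0% of all genes called by edgeR. An unadjusted p under 0.05 was found alone for 1.11% of all genes from day 2 to day 7, 0.732% from day 2 to day 4 and 0.169% from day 4 to day 7, and with neurons for 13.2%, 2.17% and 10.2%. Sema3f with neurons, against day 2 and against day 4, was the member with an unadjusted p under 0.05 there, and DESeq2 called 0 members. Of all genes DESeq2 called, alone, 0.0181% from day 2 to day 7, 0.0121% from day 2 to day 4 and 0.0% from day 4 to day 7, and with neurons 1.46%, 0.0302% and 0.0544%. For the differences by day it called 0.0181% for day 7 against day 2 and 0.0% for the other pairs of days.

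Other genes of the system were taken from lists and none of them passed in a co-culture comparison. Over all tested genes, the fitted change was above 0 for 53.3% at day 2, 48.6% at day 4 and 50.2% at day 7. On average over the days it was above 0 for 8701 of 16539 genes. With 16 libraries and the block these were 46.1%, 45.9%, 47.8% and 7457 of 17092 genes. Sema3g, the remaining class 3 ligand, was too rare to be tested, and the plexins Plxna2, Plxna4 and Plxnd1 were all fitted higher at day 2 and 2 of the 3 lower at day 7, with medians of 0.41 and −0.32, or 0.15 and −0.16 with 16 libraries and the block. Of the 13 semaphorins of classes 4 to 7, 10 were fitted higher at day 4 (median 0.36, or 8 and 0.32 with 16 libraries and the block). At day 7, 8 were fitted lower (median −0.37, or 7 and −0.17 with 16 libraries and the block). Sema4f had the smallest p on average over the days (log2 1.88, SE 0.89, adjusted p = 0.982 in edgeR). Among 4 other plexins, Plxnb2, a receptor of class 4 semaphorins, had a log2 fold change of 0.45 (SE 0.21, adjusted p = 0.982) on average. Among 6 co-receptors, L1cam, which joins Nrp1 in the Sema3a receptor of axons and is made by neurons, had the smallest p (log2 4.28, SE 1.23, adjusted p = 0.982, and 2.91 with 16 libraries and the block). Of the 7 genes of VEGF ligands and receptors, 4 were fitted higher on average, or 5 with 16 libraries and the block. Vegfa stood at 0.18 (SE 0.21, adjusted p = 0.997 in edgeR). Of the 21 genes that act downstream of plexins, 17 were fitted higher at day 2 (median 0.32). When the block was used on 16 libraries this became 12 (median 0.089). Dpysl3, a collapsin response mediator, stood at 0.38 (SE 0.20, adjusted p = 0.982 in edgeR) on average. Among the 4 proteases that process semaphorins, Furin stood at 0.23 (SE 0.25, adjusted p = 0.992).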

How the data were processed

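Total RNA of 18 libraries was measured, 3 in each of 6 groups. The authors deposited raw read counts per gene, made with Subread, featureCounts and build mm9 per the submitters' processing notes. Their versions and the strand setting were not given in the sources used here. A gene and an antisense partner cannot be told apart. Columns were matched to samples by name, and 17 further columns with library names, which hold correlations, were not used. RefSeq gave symbols for 24191 of 26301 Entrez IDs. All 112 genes of the other lists were matched.

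Counts were analysed with edgeR 4.0.16 in R 4.3.3, in one quasi-likelihood model with 6 group means over 18 libraries, TMM scaling, filterByExpr by group (16539 genes kept) and Benjamini-Hochberg adjusted p under 0.05. Log2 CPM for pairs used a prior count of 2. The SE is the size of the log2 fold change divided by the square root of the F statistic, not a separately fitted error. For Sema3c where day 7 enters and Plxna3 where day 2 enters, it comes from the values that chose them and is no test. A pair's direction in replicate 1 at day 2 or day 7 rests on a doubtful library. Symbols, promoters and neighbours came from GRCm38, which differs from mm9. The procedure was run on simulated counts in which the changed genes were only raised and replicate numbers had no effect. That run therefore cannot show how many changes would be found in these cultures. The median biological coefficient of variation in edgeR, its measure of spread between libraries of a group, was 0.569. The members and lists were chosen with earlier results of these data known. Genes were named by rule: all members, list genes past the threshold or else the one with the smallest p on average over the days, and the 3 genes most like Sema3c and Plxna3. Cell type markers were named as examples outside this rule.

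The labels give a replicate number 1 date, so numbers pair the samples. Within a day, the deviations of same-numbered libraries had correlations from 0.108 to 0.469, and those of libraries with different numbers from −0.346 to −0.0102. Alternatives were the replicate block, median-ratio scaling, DESeq2 1.42.0, no filter, 16 libraries, 16 libraries with the block, and leaving out each library or replicate number.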

Additional observations from a re-analysis of the deposited data

How the results depend on the processing

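The rare genes Sema3a and Sema3d had 356 and 456 reads in all libraries. The doubtful libraries had the fewest reads in total, with 92.5% and 40.5% of them on a single gene. The part of depth in their values was not tested. The count of all genes called was 0 at each day; at day 2 it became 22 with DESeq2 and 16 with 16 libraries and the block, and at day 7 it became 1 with the replicate block, 5 with DESeq2 and 18 with 16 libraries and the block. Over time, from 0 called genes, the replicate block gave 1 with neurons for day 7 against day 2 and 1 for day 7 against day 4. With 16 libraries and the block these were 17 and 16, with 17 alone for day 7 against day 2 and 16 alone for day 4 against day 2, and the differences by day gave 23, 15 and 14. The block changed no call of a member, and 0 members were called under the settings run. The cause of these shifts was not tested. At day 2 the log2 fold change of Sema3e became −0.35 with the replicate block, −0.13 with median-ratio scaling, −0.31 with DESeq2, −0.030 without the filter and −0.30 with 16 libraries and the block. Nrp1 at day 2 became −0.044 with median-ratio scaling, −0.092 with DESeq2, −0.15 with 16 libraries and −0.15 with the block added. Sema3b at day 2 became −0.041 with 16 libraries and the block, and Sema3c −0.00063 with 16 libraries. At day 7 Nrp2 became −0.27 with the replicate block, and Plxna3 −0.065 with 16 libraries and −0.15 with the block added. Of the other values under these settings, 226 kept their direction. Leaving out a library or a replicate number gave the following ranges. At day 2 they were −1.78 to 8.53 for Sema3a, −0.12 to 0.75 for Sema3b, −0.048 to 0.44 for Sema3c, −0.63 to 1.85 for Sema3d, −1.24 to 0.54 for Sema3e, −0.16 to 0.16 for Nrp1 and −1.03 to 1.21 for Nrp2, while Sema3f ranged from 0.42 to 1.081, Plxna1 from 0.41 to 1.10 and Plxna3 from 0.51 to 1.02. At day 4 they were −0.022 to 5.004 for Sema3a, −0.031 to 0.25 for Sema3b, −0.064 to 0.30 for Sema3c, −0.47 to 2.25 for Sema3d, −1.44 to 0.20 for Sema3e, −0.14 to 0.60 for Sema3f, −0.27 to 0.15 for Plxna1 and −0.039 to 0.17 for Plxna3, while Nrp1 ranged from −0.32 to −0.022 and Nrp2 from 0.12 to 1.24. At day 7 they were −0.38 to 1.05 for Sema3a, −0.44 to 2.19 for Sema3d, −1.88 to 1.01 for Nrp2, −0.52 to 0.0084 for Plxna1 and −0.17 to 0.31 for Plxna3, while Sema3b ranged from −1.55 to −0.10, Sema3c from 0.34 to 1.75, Sema3e from −2.72 to −0.71, Sema3f from −1.54 to −0.023 and Nrp1 from 0.097 to 0.55. On average over the days they were −0.40 to 0.046 for Sema3b, −0.20 to 0.31 for Sema3f, −0.039 to 0.13 for Nrp1 and −0.25 to 0.79 for Nrp2.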
